A study of Danio rerio with 13 samples.

Results

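The summits of 6mA-IP-seq that were found at 11 hpf (hours post fertilization) in both replicates were compared with those found at the 64-cell stage with both antibodies, to see which positions of early 6mA enrichment were still found at the later stage. 6mA-IP-seq pulls fragments of genomic DNA (gDNA) down with an antibody against N6-methyldeoxyadenosine (6mA), and a peak is a stretch where its reads outnumber those of the DNA before pull-down, the input. A summit is the position of highest enrichment in a peak, and a broad peak can hold several. At 11 hpf there were 2 replicate libraries, both with the SYSY antibody (Synaptic Systems), and 1 input library for the stage. At the 64-cell stage (64C) there was 1 library with the Abcam antibody and 1 with the SYSY antibody, each with its own input. All embryos were of the Tubingen line, with no treatment named, raised under 1 protocol. A large pool of embryos went into the 64C gDNA, and the 11 hpf libraries are described as biological replicates, with no further detail of their collection. An 11 hpf summit belonged to the 11 hpf set when the other replicate had a summit within 250 bp, and a 64C summit to the 64C set when the other antibody did. The 11 hpf set held 3467 of the 7582 summits of replicate 1 and 3140 of the 4584 summits of replicate 2. The 64C set held 29297 of the 53511 Abcam summits and 26445 of the 79291 SYSY summits. Together these were 62349 members of the 144968 summits in the 4 lists, out of 159142 in the 8 lists of the series. A 64C set summit was called retained when a summit of the 11 hpf set lay within 250 bp of it.

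6mA is an adenine that carries a methyl group on its amino nitrogen. In bacteria it marks the host genome for restriction-modification systems and guides mismatch repair, while in vertebrate DNA it is a rare base. The 64-cell embryo of zebrafish is in the cleavage stage, when cells divide rapidly and the zygotic genome is still largely silent. By 11 hpf gastrulation is over and the first somites have formed, so that the comparison spans the onset of zygotic transcription and the laying out of the body axis.

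Several features of the lists bear on the comparison. Each summit carries a score, the −log10 of the q-value from the peak caller, which was used only to rank summits within a list. The depth behind each list is unknown. A summit that is missing at 11 hpf was not called there, which does not show that 6mA was absent. The 64C SYSY list has no summit on unplaced scaffolds, where 420 and 371 summits of the 11 hpf set lie in replicates 1 and 2. The 1 summit of that list off the numbered chromosomes is mitochondrial. Past the last SYSY summit of the numbered chromosomes lie 94 and 85 summits of the 11 hpf set, most of them on chromosomes 4, 6, 15, 18 and 21. These and the scaffold summits could have almost no partner in the 64C set, and values are given with and without them where they matter. Peak names carry a further replicate mark that differs between the 11 hpf lists and the 64C SYSY list and is missing from the Abcam list, and whose meaning is not stated. Stage, embryo collection and experiment therefore cannot be told apart. With 1 library per antibody at 64C, no test over samples could be made between the stages. Wilson intervals at 95% are given, and they cover counting error only and treat neighbouring summits as independent.

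Most 64C set summits had no 11 hpf summit, while most 11 hpf set summits lay at a position already found at 64C. The unequal list lengths alone lead toward such a contrast. When set summits within 250 bp were joined into regions, the 11 hpf set made 1964, or 15.4% of the number of 64C regions (12723). Even with every 11 hpf region matched, most 64C regions would thus have stayed outside the 11 hpf set. Of the Abcam summits of the 64C set, 4125 of 29297 were retained (14.1%, interval 13.7 to 14.5%), and of the SYSY summits 4224 of 26445 (16.0%, 15.5 to 16.4%). Over the whole lists the shares were 9.26% for Abcam and 6.42% for SYSY, so that the summits found with both antibodies were retained more often than their lists at large. Among the summits left out of the set, 3.43% (830 of 24214) of the Abcam and 1.64% (865 of 52846) of the SYSY summits lay near the 11 hpf set. The Abcam summits left out include 3275 off the numbered chromosomes, where the SYSY list holds only 1 summit. The Abcam share without these was not counted. The 2 antibody lists are not independent here, because each member of one was chosen for a partner in the other.

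The remaining members fell into a group seen in 1 replicate and a larger one seen in neither. Of the SYSY members, 3631 (13.7%) had a summit of replicate 1 alone, 1320 (4.99%) a summit of replicate 2 alone, 54 had summits of both that lay too far apart to pair, and 17216 (65.1%) had no 11 hpf summit. Of the Abcam members, 19585 (66.8%) had none. Neither these classes nor the shares by replicate that follow were counted over the whole 64C lists. Whether they are particular to the members is therefore not shown. Counted against the whole list of each replicate, 27.5% of the Abcam members lay near a summit of replicate 1 and 18.3% near one of replicate 2 (mean 22.9% ± 6.49, SD, n = 2). For the SYSY members the shares were 29.2% and 20.04% (mean 24.6% ± 6.46, SD, n = 2). The replicate with more summits thus gave the higher share. With replicate 2 left out of the rule the retained share was the 27.5% and 29.2% of replicate 1 alone. When the 4584 summits with the highest scores were taken from each of the 4 lists, the 64C set shrank to 87 Abcam and 94 SYSY summits, of which 85.1% and 86.2% were retained.

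Seen from the later stage, 2448 of the 3467 members of replicate 1 (70.6%, 69.1 to 72.1%) and 2201 of the 3140 of replicate 2 (70.1%, 68.5 to 71.7%) lay within 250 bp of a 64C set summit. The mean was 70.4% ± 0.363 (SD, n = 2), against 62.5% and 65.7% over the whole lists of replicates 1 and 2. Among the summits left out of the set it was 55.7% (2293 of 4115) and 56.0% (809 of 1444). A 64C set summit nearby was thus common among unpaired 11 hpf summits too. The members of each replicate were chosen for a partner in the other, and both replicates share 1 input. The SDs in this paragraph therefore do not measure the spread between independent replicates. On the stretches of the numbered chromosomes where both 64C lists have data, the share was 82.8% in replicate 1 and 81.9% in replicate 2 (mean 82.4% ± 0.637, SD, n = 2). In that range most of the remaining members lay near a SYSY summit that had no Abcam partner, 426 (14.4%) in replicate 1 and 410 (15.3%) in replicate 2. An Abcam summit alone was found near 60 and 59, and 21 (0.711%) and 16 (0.596%) had no 64C summit of either antibody. On scaffolds, where the SYSY list could give no partner, 359 of 420 (85.5%) and 317 of 371 (85.4%) members had an Abcam summit within 250 bp. With the 4584 highest-scoring summits of each list, a setting that changed list length and score range at once and left 87 and 94 summits in the 64C set, the share was 4.90%.

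The retained summits were close matches. Their median distance to the nearest 11 hpf set summit was 37 bp for Abcam and 33.5 bp for SYSY, and 1803 of 4125 (43.7%) and 1935 of 4224 (45.8%) lay within 25 bp. Fewer lay at 201 to 250 bp, 318 and 320, and the number just beyond the limit, at 251 to 300 bp, was 250 and 256. Matching within 100 bp in every step gave 8.89% retained for Abcam and 9.31% for SYSY, and with 1 summit taken per peak it was 9.95% and 9.63%. The limit that makes the set also cut through a gradient. Of Abcam summits with a SYSY partner within 50 bp, 17.6% were near the 11 hpf set, of those just inside the limit (201 to 250 bp) 5.25% (69 of 1315), and of those just outside (251 to 300 bp) 3.44% (29 of 844). For SYSY summits the same shares were 17.6%, 10.8% (109 of 1007) and 7.83% (55 of 702). In the 11 hpf lists the share near the 64C set was 73.8% just inside and 66.7% just outside the limit in replicate 1, and 71.9% and 78.9% in replicate 2, on 71 to 195 summits each.

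Summits near chromosome ends were retained more often than those in the interior. Within 2 Mb of an end, 2142 of 11141 Abcam members (19.2%, 18.5 to 19.97%) were retained, against 1983 of 18156 farther in (10.9%, 10.5 to 11.4%). For SYSY members it was 2153 of 10297 (20.9%, 20.1 to 21.7%) near the ends, against 2071 of 16148 (12.8%, 12.3 to 13.3%) farther in. The mean difference was 8.19 percentage points. It was seen against each replicate alone: near replicate 1, 35.3% of the SYSY members at the ends and 25.3% of those in the interior had a summit, and near replicate 2, 25.5% and 16.6%. Both ends of the chromosomes took part, with 20.02% of Abcam members at the low-coordinate and 18.4% at the high-coordinate end retained, and 21.2% and 20.5% of SYSY members. On chromosome 4 the SYSY list stops 14642093 bp before the last summit of any list, so that its high-coordinate end holds no member. On chromosomes 6, 15, 18 and 21 it stops 328275 to 1336944 bp before, and that end is covered in part. Ends were above the interior on 25 of 25 chromosomes in each list. With matching within 100 bp the difference was 5.40 points, and within 1000 bp it was 12.6 points.

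The decline went on through the whole chromosome and was not limited to the outermost bins. Abcam members were retained at 21.2% within 1 Mb of an end, 16.5% at 1 to 2 Mb, 14.8% at 2 to 5 Mb, 12.1% at 5 to 10 Mb, 7.70% at 10 to 20 Mb and 6.20% beyond 20 Mb. SYSY members were retained at 22.8%, 18.0%, 17.0%, 14.1%, 9.78% and 7.01% over the same bins. Retention in the outermost bin was thus more than 3 times that in the centre, and the intervals of the first and last bins lay far apart in both lists. The density of the members themselves fell more steeply, from 129 Abcam and 123 SYSY members per Mb within 1 Mb of an end to 7.22 and 6.71 per Mb beyond 20 Mb. That of the 11 hpf set fell more steeply still, from 20.8 and 18.6 members per Mb in replicates 1 and 2 to 0.462 and 0.401. Fewer 11 hpf summits per 64C member were thus on offer toward the centre. The part this plays in the decline of retention was not tested. The ends held a larger part of the 11 hpf set than of the 64C set. Within 2 Mb of an end, 7.46% of the summed chromosome length, lay 50.8% and 49.7% of the members of replicates 1 and 2 on numbered chromosomes, against 38.0% of Abcam and 38.9% of SYSY members. In every list the summits left out of the set lay there less often than the members. Their shares were 38.7% and 39.4% in replicates 1 and 2, 24.0% for Abcam and 15.7% for SYSY. The pairing rule thus shifted each list toward the ends. Beyond 20 Mb lay 5.22% and 4.98% of the 11 hpf members, against 8.48% of Abcam and 8.74% of SYSY members.

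The 11 hpf set also had lower shares toward the centre, but its highest shares were not in the outermost bin. Its share near a 64C set summit was 86.5% and 86.3% at 2 to 5 Mb in replicates 1 and 2, and 60.4% (96 of 159) and 55.8% (77 of 138) beyond 20 Mb. Within 1 Mb of an end it was 79.4% and 79.1%, or 84.5% and 84.0% when positions past the last SYSY summit were left out. At 1 to 2 Mb it was 86.4% and 85.3%, or 89.4% and 88.5% without those positions.

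**Figure D1:**
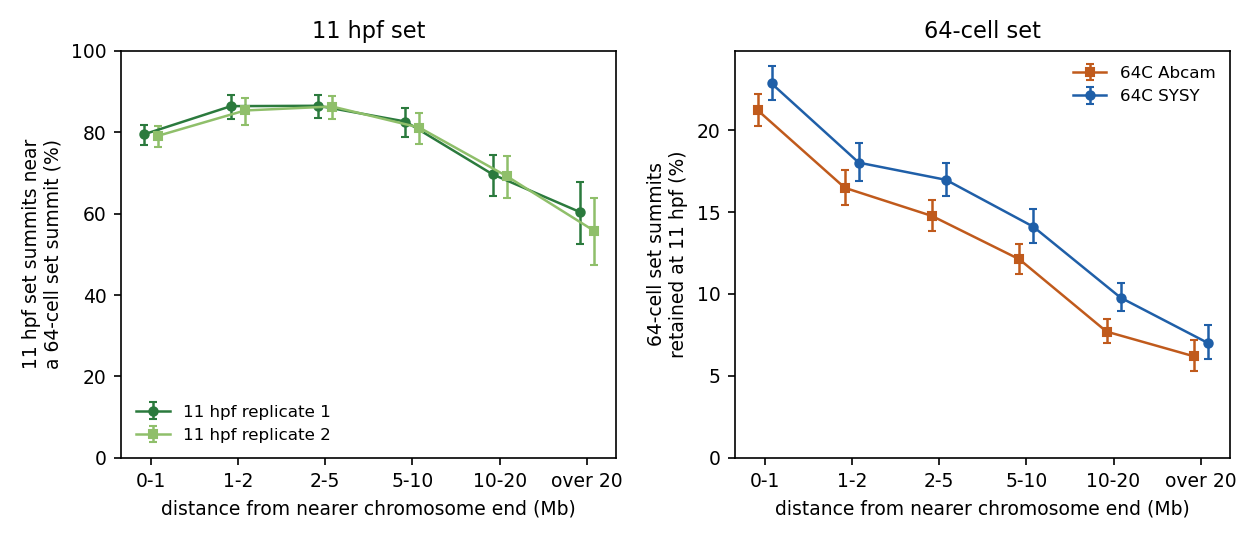
Left, share of 11 hpf set summits (%) within 250 bp of a 64-cell set summit, and right, share of 64-cell set summits (%) retained at 11 hpf, each against the distance from the nearer chromosome end in Mb. Points are single libraries and bars are 95% Wilson intervals; the vertical scales differ. Retention of the 64-cell set fell to 6.20% (Abcam) and 7.01% (SYSY) beyond 20 Mb.

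Retention of the members differed between chromosomes by a factor of 2.67. The 3 chromosomes with the highest mean over both antibody lists were 22, 19 and 21, and the 3 lowest were 1, 4 and 2. On chromosome 22, 20.1% of 715 Abcam members and 22.2% of 639 SYSY members were retained, and on chromosome 1, 7.66% of 1305 and 8.19% of 1196. Chromosome 4 had 11.2% of 1105 Abcam and 11.5% of 1166 SYSY members retained, chromosome 2 had 10.8% and 12.2%, chromosome 19 had 17.2% and 19.2%, and chromosome 21 had 17.6% and 18.8%. The high-coordinate end of chromosome 4 holds no member, and 20.5% of its Abcam and 20.4% of its SYSY members lay within 2 Mb of an end. Its mean in the interior was 10.0%, which is not among the 3 lowest there. The intervals of chromosomes 22 and 1 lay apart in both lists, 17.4 to 23.2% against 6.34 to 9.23% for Abcam and 19.2 to 25.6% against 6.77 to 9.89% for SYSY. Over the 25 chromosomes the median was 14.3% for Abcam and 16.3% for SYSY, and neighbours in the order had overlapping intervals, except chromosomes 4 and 1 in the Abcam list. The order was alike in both lists (r = 0.94, rho = 0.91 over 25 chromosomes), whose members were chosen as partners of each other.

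Chromosomes differed in the interior as well as at the ends. In the interior alone, where the highest value was 2.26 times the lowest, chromosomes 12, 7 and 25 were highest and chromosomes 1, 11 and 2 lowest. Chromosome 12 had a mean of 16.2% in the interior, and chromosome 1 had 7.19%. At the ends chromosome 22 was highest with a mean of 35.6%, and chromosome 1 lowest with 9.51%. Retention at the ends and in the interior of the same chromosome were loosely related (r = 0.29, rho = 0.39 over 25 chromosomes), as were retention and chromosome length (r = -0.34, rho = -0.35). The spread between chromosomes was smaller when 1 replicate stood for 11 hpf. With replicate 1 alone as the 11 hpf list the highest value was 1.42 times the lowest, and with replicate 2 alone 1.83 times. Chromosome 1 also stood low in the 11 hpf set, where 65.6% of its members lay near a 64C set summit. Chromosome 4 had 49.98% over its whole length and 68.5% up to the last SYSY summit, and chromosome 19 had the highest share, 93.4%.

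**Figure D2:**
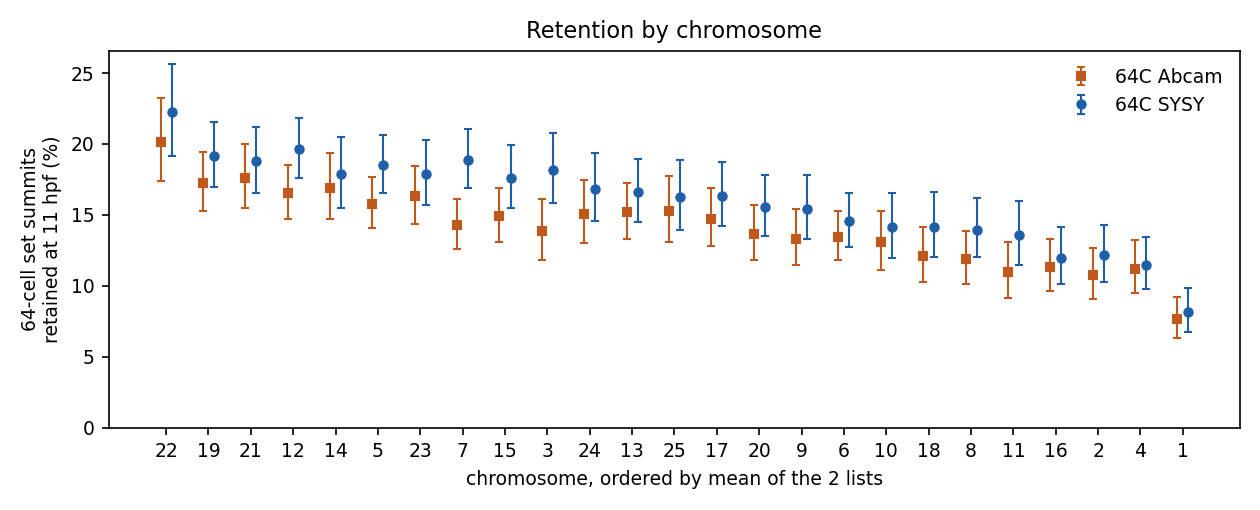
Share of 64-cell set summits (%) retained at 11 hpf on each of the 25 numbered chromosomes, ordered by the mean of the 2 lists. Points are the Abcam and SYSY libraries and bars are 95% Wilson intervals; chromosome 22 had 20.1% and 22.2% and chromosome 1 had 7.66% and 8.19%.

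The score of a 64C set summit was closely tied to its retention in the SYSY list and weakly in the Abcam list. Summits were ranked within the whole list and split into 10 groups of equal size, from 1 (lowest) to 10 (highest), and the members in each group were counted. In group 1, 4.40% of 1817 SYSY members were retained (3.55 to 5.45%), in group 5 9.50%, in group 8 20.1%, in group 9 35.2% (33.5 to 36.9%) and in group 10 72.9% of 964 (70.0 to 75.6%). Among the SYSY members each group was above the one before it. Among Abcam members the share was 10.7% of 2691 in group 1 (9.59 to 11.9%), 13.0% in group 5, 14.8% in group 8, 17.4% in group 9 and 22.0% of 3532 in group 10 (20.7 to 23.4%), with no steady rise below group 7. Averaged over both lists group 10 was 39.9 points above group 1. Retained members had a median score of 6.69 against 5.83 for those not retained in the Abcam list, and of 10.1 against 5.68 in the SYSY list.

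The highest SYSY group is a special case, since only 12.2% of its 7929 summits had an Abcam partner, compared with 48.3% in group 8. Of the 6965 summits of that group left out of the set, 1.79% lay near the 11 hpf set, against 4.10% of the 4950 such summits of group 9. The high retention of high SYSY scores was thus seen at positions also found with Abcam. Shares over all summits of a score group, members or not, were not counted, so that the rise is shown for members alone. The scores of both antibodies were then combined. Among Abcam members in the highest 2 score groups, 49.6% of those whose nearest SYSY summit was also in its highest 2 score groups were retained, against 7.47% of those whose SYSY summit ranked in the lower 5. Among SYSY members in the highest 2 score groups, 52.5% of those with an Abcam partner in its highest 2 score groups were retained, against 37.6% of those with a partner in the lower 5. The antibody at 11 hpf was SYSY, so that the antibody shared between the stages and the difference between the 2 lists cannot be told apart.

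The 11 hpf set showed no such gradient. In replicate 1 the share near a 64C set summit lay between 68.8% and 74.2% over the 10 groups, and in replicate 2 between 64.0% and 74.8%. The median score was 5.43 for replicate 1 members near a 64C set summit and 5.43 for the others. The score did separate the members from the rest of the 11 hpf lists: 85.0% of the highest score group of replicate 1 and 95.9% of that of replicate 2 had a partner in the other replicate, against 24.6% and 50.98% of the lowest groups.

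**Figure D3:**
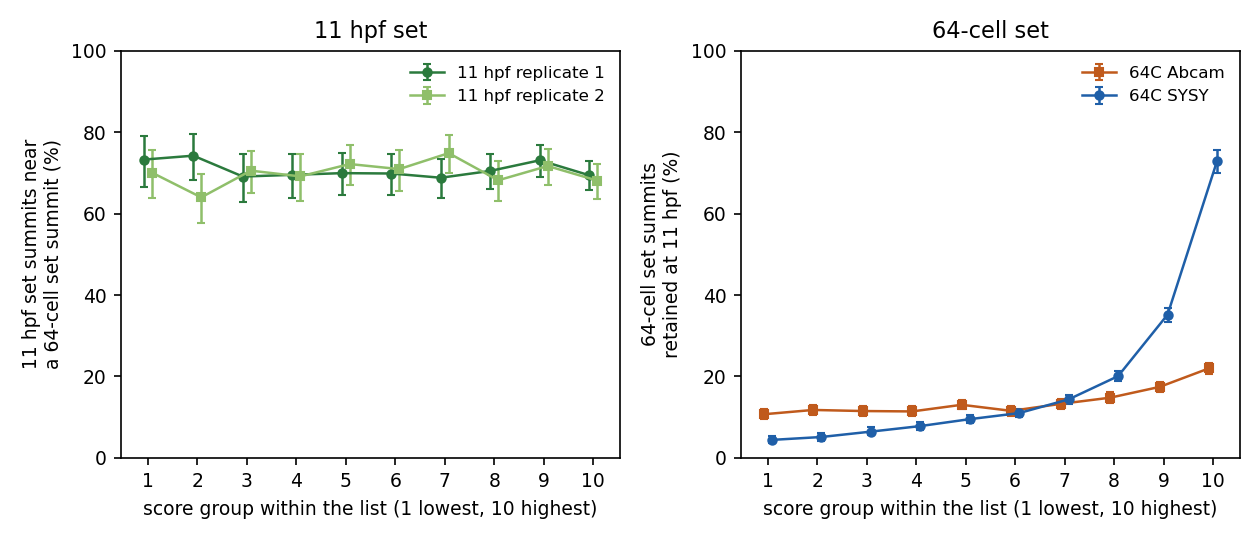
Left, share of 11 hpf set summits (%) near a 64-cell set summit, and right, share of 64-cell set summits (%) retained at 11 hpf, by score group within each list from 1 (lowest) to 10 (highest). Points are single libraries and bars are 95% Wilson intervals; the highest SYSY score group reached 72.9% and the highest Abcam score group 22.0%.

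Members in broad peaks with several summits were retained more often than those in peaks with 1 summit. In peaks with 2 or more summits 17.6% of 18336 Abcam members and 27.0% of 12399 SYSY members were retained, against 8.19% of 10961 and 6.28% of 14046 in peaks with 1 summit. The mean difference was 15.0 points. In the SYSY list the share was 16.6% in peaks with 2 summits, 24.1% with 3, 29.6% with 4 and 39.2% with 5 or more (37.7 to 40.7%). In the Abcam list it was 11.7%, 16.9%, 22.1% and 24.1% (22.9 to 25.3%). The largest peaks with members held 17 summits in the Abcam and 30 in the SYSY list. When each peak was counted once, as retained if any of its members was, 32.0% of 837 Abcam and 46.0% of 639 SYSY peaks with 5 or more summits were retained. A peak with more members has more chances to count as retained here, and the part this plays was not tested. With only the highest-scoring summit of each peak kept in every list, the mean difference between peaks with 2 or more summits and with 1 was 11.9 points. In the 11 hpf set the number of summits went with little difference over the whole set, 69.9% of 1118 members in peaks with 2 or more summits and 71.0% of 2349 in single-summit peaks in replicate 1, and 69.4% of 785 and 70.3% of 2355 in replicate 2. These shares include the scaffold members, of which 0 of 420 and 0 of 371 lay near a 64C set summit. The split by distance from the end leaves scaffold members out. In the chromosome interior the shares of the 11 hpf set were 85.9% and 76.4% in replicate 1, and 83.2% and 76.3% in replicate 2, but within 2 Mb of an end they were 80.3% and 82.5%, and 80.1% and 81.4%. In peaks with 5 or more summits 64.1% of replicate 1 members (55.6 to 71.8%) and 50% of replicate 2 members (37.9 to 62.1%) lay near a 64C set summit. These members came from 21 and 10 peaks and again include scaffolds. On numbered chromosomes 68.8% of them near the ends and 86.1% in the interior did so in replicate 1, and 46.4% and 78.3% in replicate 2. Members of either set were more often in broad peaks than the rest of their lists. Peaks with 2 or more summits held 32.2% of the replicate 1 members, against 3.82% of the rest, and 25% of the replicate 2 members, against 1.80%. They held 62.6% of Abcam members, against 31.1% of the rest, and 46.9% of SYSY members, against 34.8%. A broad peak offers more positions for a partner under the rule that makes the sets, and the part this plays was not tested. With matching within 100 bp the difference in retention was 8.62 points, and with scores at or above the median of each list it was 9.01 points.

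The number of summits, the score and the distance from the end each went with retention within broad classes of the others, the score only weakly so in the Abcam list. In single-summit peaks of the SYSY list 9.35% of members near the ends and 4.62% of those in the interior were retained, and in peaks with 5 or more summits 42.6% and 36.5%. For the Abcam list these shares were 11.7% and 6.37%, and 31.2% and 19.0%. Among SYSY scores in groups 6 to 10 30.4% of members in peaks with 2 or more summits and 10.3% of those in single-summit peaks were retained, and in groups 1 to 5 16.1% and 3.87%. For Abcam scores these shares were 19.6% and 9.10% in groups 6 to 10, and 15.0% and 7.43% in groups 1 to 5. In the highest SYSY score group 75.5% of members near the ends and 70.4% of those in the interior were retained. In the highest Abcam score group it was 31.3% and 16.7%.

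**Figure D4:**
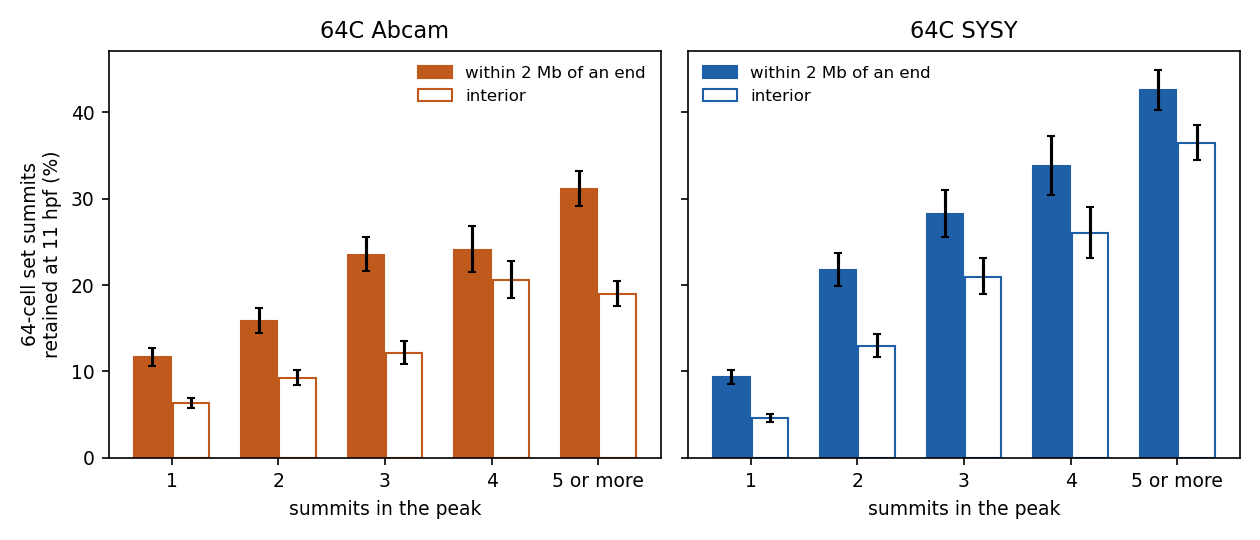
Share of 64-cell set summits (%) retained at 11 hpf by the number of summits in their peak, for members within 2 Mb of a chromosome end (filled bars) and in the interior (open bars). Left, Abcam library, and right, SYSY library; error bars are 95% Wilson intervals. In peaks with 5 or more SYSY summits 42.6% near the ends and 36.5% in the interior were retained.

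Chaining the set summits of all 4 lists within 250 bp gave 13357 regions. The 64C set made 12723 of them and the 11 hpf set 1964, and 1330 regions belonged to both, which is 67.7% of the 11 hpf and 10.5% of the 64C regions. The 11 hpf regions include 223 on scaffolds, where the 64C set has none, and this lowers their share. Shared regions had a median span of 470 bp (238 to 822 bp between the quartiles) from the first to the last summit, against 150 bp (45 to 300 bp) for 64C regions outside the 11 hpf set. The chaining itself favours this order. In shared regions alone, 11 hpf set summits could lengthen the span or join 64C summits that lay farther apart. Of 460 regions whose 64C summits spanned more than 1000 bp, 48.0% were in the 11 hpf set (43.5 to 52.6%), and of 4601 that spanned 100 bp or less 3.76% (3.25 to 4.35%). A longer region offers more positions for a match, and the parts played by this and by the chaining were not tested. The widest shared region, on danRer10 chromosome 24 from 2924354 to 2928553, held 12 and 16 summits of 11 hpf replicates 1 and 2, 27 of Abcam and 30 of SYSY. Of the 64C regions, 9095 (71.5%) had no 11 hpf summit, paired or not, within 250 bp, and of the 11 hpf regions 60 (3.05%) had no 64C summit, 37 of these on scaffolds. Regions were chained from set summits alone, so that no share over whole lists stands beside these.

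The 12 and 13 hpf libraries, which played no part in choosing the members, held larger shares of the retained members than of the others. Of the 8349 retained 64C members of both lists, 50.9% and 54.7% had a summit of replicates 1 and 2 of 12 hpf within 250 bp, and 43.8% and 39.6% one of replicates 1 and 2 of 13 hpf. Of the 47393 members not retained it was 8.88%, 11.2%, 8.24% and 5.48%. Over all 132802 summits of both 64C lists the shares were 8.01%, 9.35%, 7.2% and 5.48%. Retained members were higher in 4 of 4 libraries, by 38.8 ± 4.65 percentage points (SD, n = 4), and a two-sided exact permutation test over the 4 libraries gave p = 0.125. This is the smallest p that 4 libraries allow, so that the test adds nothing to the count. The differences were 42.1 and 43.5 points at 12 hpf and 35.6 and 34.2 points at 13 hpf. The SD therefore mixes the difference between stages with that between replicates. The members with an 11 hpf summit outside the 11 hpf set lay between the others, at 20.02%, 24.7%, 17.6% and 12.1%, and those with no 11 hpf summit were at 5.67%, 7.30%, 5.55% and 3.57%. All 4 later libraries were made with the SYSY antibody, as were those of 11 hpf.

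Most members not retained at 11 hpf had no later summit either. Of the members not retained, 36120 (76.2%) had no summit in any of the 4 later libraries and 256 (0.540%) had one in each. Of the retained members, 1663 (19.9%) had a summit in all 4 and 1855 (22.2%) in none. The same counts were not made over all summits of the 64C lists. Per later library, 5.48 to 9.35% of all 64C summits had a summit nearby, close to the 5.48 to 11.2% of members not retained. In the 11 hpf set itself, up to the last SYSY summit, members near a 64C set summit were found again somewhat more often than the others. In replicate 1 58.4% of those near and 47.9% of those not near a 64C set summit had a summit of 12 hpf replicate 1, and 47.4% and 39.3% one of 13 hpf replicate 2. In replicate 2 these shares were 57.3% and 47.4%, and 47.4% and 39.6%.

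**Figure D5:**
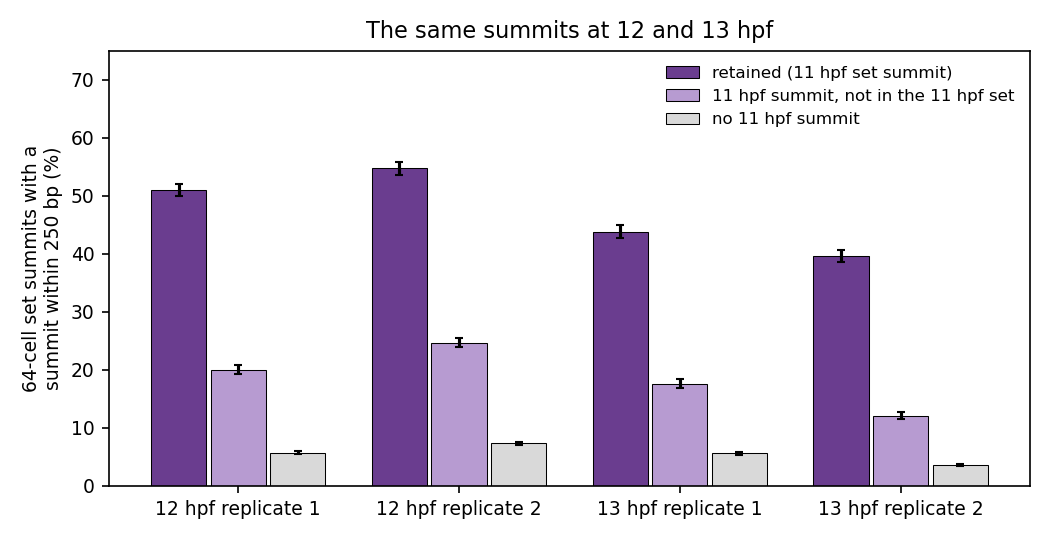
Share of 64-cell set summits of both lists (%) with a summit of each 12 or 13 hpf library within 250 bp, for members retained at 11 hpf, members with an 11 hpf summit outside the 11 hpf set and members with no 11 hpf summit. Error bars are 95% Wilson intervals. Retained members ran from 39.6% to 54.7% and members with no 11 hpf summit from 3.57% to 7.30%.

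The regions of both sets with the best mean rank of their highest score in the 4 lists are given here with their danRer10 positions. Genes at these positions were not looked up, as no danRer10 annotation was used here. The first lies on chromosome 6 from 8392301 to 8393139, 8.39 Mb from the nearer end. It held 7 and 6 summits of 11 hpf replicates 1 and 2, 8 of Abcam and 7 of SYSY, with highest scores of 21.6, 21.3, 18.9 and 95.9 in these lists, and it had summits in each of the 4 libraries of 12 and 13 hpf. The second, on chromosome 18 from 5125799 to 5126283, held 4 and 2 summits at 11 hpf with scores up to 28.8 and 32.5, against 2 of Abcam and 5 of SYSY with scores up to 13.5 and 114. The third, on chromosome 15 from 44583841 to 44583845, was 1 summit in each of the 4 lists within 5 bp, with scores of 24.5, 22.9, 27.0 and 68.3, and it had no summit within 250 bp at 12 or 13 hpf. The other two lie at chr22:200208-201032 and chr23:44770037-44770397, and both were found in all 4 later libraries. These regions were thus found both near the ends and several Mb away from them.

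The 64C regions with the best mean rank and no 11 hpf summit of either replicate also lay both near the ends and inside the chromosomes. The first lies on chromosome 5 from 83537 to 84719, 0.0835 Mb from the end, with 9 Abcam and 8 SYSY summits and highest scores of 15.7 and 73.6. It had 1 summit of 12 hpf replicate 1 within 250 bp and none of the other later libraries. A second lies on chromosome 15, from 47005849 to 47006065, 0.763 Mb from the end. Next, chr23:45978460-45978879, had 2 summits in each of the 4 libraries of 12 and 13 hpf, so that of the 4 stages it was missing at 11 hpf alone. The other two, each with 2 summits of either antibody, were chr5:60785285-60785372, 10.9 Mb from the end, and chr11:2651824-2651915. The regions on chromosome 15 and on the inner part of chromosome 5 had no summit in any later library. Of the 5 regions of the 11 hpf set with the best mean rank and no 64C summit, 4 are on unplaced scaffolds and so outside the SYSY list. The other is on chromosome 18 from 50832 to 50833, with 1 summit in each replicate, scores of 12.7 and 11.4, and no summit at 12 or 13 hpf.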

How the data were processed

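Summit lists of 4 6mA-IP-seq libraries (11 hpf replicates 1 and 2, 64C Abcam and 64C SYSY) were analysed, with the 4 lists of 12 and 13 hpf as a further readout. The 5 inputs were not analysed here. The authors mapped 50-bp reads to danRer10 with Bowtie, version 1.0 in the submitters' processing notes, and gave a read that matched several places equally well to 1 place drawn at random. They called peaks for each library with MACS (MACS2 in these notes) at a false discovery rate of 0.01, and deposited for each summit the −log10 of its q-value. A summit in a repeat may therefore belong to another of its copies.

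Samples were grouped by their labels. From the positions, counted from 1, the distance to the nearest summit of another list was taken. Chromosome lengths are the position of the last summit in any of the 8 lists. Summits of equal score were put in a seeded random order. Peaks were counted by their number in the peak names. The matching was tested on simulated lists, with positions drawn evenly along the chromosomes and 1 summit per peak. These lack the crowded ends and broad peaks of the real lists, so that they check the code alone. The members and lists were chosen with earlier results of these data known. The named regions are the 5 with the best mean rank of the highest score, per list, among regions of both sets, 64C regions without an 11 hpf summit and 11 hpf regions without a 64C summit, and the 3 highest and 3 lowest chromosomes; the widest region was added after its values were seen. Alternatives were other matching distances, 1 summit per peak, numbered chromosomes, the range covered by the SYSY list, scores at or above the median, lists of equal length, no bins dense in the SYSY list alone, each library left out in turn, other end widths, other rank groups and the interior alone. The planned look at sequence around summits was not made. Scripts ran under Python 3.11.15 with SciPy 1.17.1, pandas 2.3.3 and NumPy 2.4.6, and plots were drawn in matplotlib 3.10.9.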

Additional observations from a re-analysis of the deposited data

How the results depend on the processing

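Of 95 values recomputed under other settings, 48 kept their side of the test or stayed within the error of the reported value and 47 moved beyond it. The difference in the later libraries always counted as kept, because a permutation test over 4 libraries cannot give p below 0.125. For the other results the error was an SD over the 2 replicates of 11 hpf. It was 6.46 points for SYSY retention, so that 9.63% counted as within the error of 16.0%. It was 0.03 points for the score difference, so that 39.6 points counted as moved from 39.9. The 2 counts therefore do not measure how stable the results are. No difference between classes changed sign, and shares and ratios cannot. The score differences below are means over a steep SYSY and a shallow Abcam gradient, and were not split by list. Matching within 100, 500 or 1000 bp gave a share of the 11 hpf set near the 64C set of 63.2, 72.1 or 73.7%, end differences of 5.40, 10.6 or 12.6 points and score differences of 34.7, 40.1 or 38.5 points. At 100 bp retention was 8.89% (Abcam) and 9.31% (SYSY) and the difference by summits per peak 8.62 points. At 500 bp the chromosome ratio was 2.13, and at 1000 bp it was 1.93, with a difference by summits per peak of 19.1 points and retention of 20.8% (Abcam) and 24.3% (SYSY). With 1 summit per peak retention was 9.95% (Abcam) and 9.63% (SYSY), the 11 hpf share 57.3%, the end difference 6.60 and the score difference 36.9 points. With scores at or above the median these were 57.6%, 6.89 and 44.6 points, the difference by summits per peak was 9.01 points and the chromosome ratio 3.51. Lists of equal length gave 85.1% (Abcam), 86.2% (SYSY) and 4.90% (11 hpf). The 11 hpf share was 79.9% on numbered chromosomes, 82.4% up to the last SYSY summit, 83.9% without the SYSY library, where 9.26% of all Abcam summits were retained, and 82.5% without the Abcam library, where 6.42% of all SYSY summits were retained. The score difference was 39.6 points with tied scores given their average rank, 10.3 points between score groups 6 to 10 and 1 to 5 and 37.9 points in the interior, where the chromosome ratio was 2.26. With 3 or more summits as the class, the difference by summits per peak was 19.6 points.

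With 1 of the 11 hpf replicates left out in turn, retention lay between 18.3 and 27.5% (Abcam) and between 20.04 and 29.2% (SYSY), and the 11 hpf share between 62.5 and 65.7%. The differences lay between 9.20 and 10.7 points (ends), 41.12 and 41.16 points (score), and 16.3 and 21.1 points (summits per peak), and the chromosome ratio between 1.42 and 1.83. The difference at 12 and 13 hpf lay between 26.8 and 32.7 points, with 4 of 4 libraries positive. No paired analysis was possible, because 64C had 1 library per antibody and no label pairs it with an 11 hpf replicate.

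Read numbers were not analysed here, so that a summit present at 64C and missing at 11 hpf may lie below what the 11 hpf libraries could call. Stage, experiment and, for Abcam, antibody cannot be told apart. Summits within a peak are not independent, and neither are the 2 antibody lists or the set members of the 2 replicates of 11 hpf.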
